A study of Mus musculus with 6 samples.

Results

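The core circadian clock genes were described in RNA-seq libraries of the mouse tibialis anterior, the muscle at the front of the shin. The 10 genes were Arntl, Clock, Per1, Per2, Per3, Cry1, Cry2, Nr1d1, Nr1d2 and Dbp, taken by symbol from 41025 genes in each table, and all 10 passed the filter on low values (mean FPKM of 1 or more), as did 11383 genes in all. FPKM is a count of fragments on a gene scaled by the length of the gene and by the size of the library, so levels of different genes can be compared per length. The series asks what deletion of Mettl21e, a protein methyltransferase gene, does to muscle transcripts. Its 6 libraries hold total RNA of 8-week-old C57BL/6 mice, with 3 biological replicates given the genotype wild type and 3 the genotype Mettl21e KO. Both genotypes share strain, age and muscle. How the allele was made, the sex of the mice, the time of day of sampling and whether each replicate is 1 mouse are not stated in the labels. The p-values therefore measure the spread between these libraries, which may be partly technical.

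In the mammalian clock, the proteins of Arntl (BMAL1) and Clock form a dimer that binds E-box sequences and switches on the Per, Cry, Nr1d and Dbp genes. PER and CRY proteins return to block that dimer, and the REV-ERB receptors encoded by Nr1d1 and Nr1d2 repress Arntl through ROR/REV-ERB response elements. DBP and its relatives act on D-box sequences, of which Per3 has well-known examples. In peripheral tissues of mice, skeletal muscle included, Arntl transcripts peak roughly opposite to those of Nr1d1 and Dbp, and Nr1d1 and Dbp peak ahead of Per2 and Cry1, so the levels of these genes relative to one another change over the day.

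Between 8476591 and 10856669 fragments stood behind a library, so that 1 fragment per kilobase stood for 0.0921 to 0.118 FPKM depending on the library. Mettl21e itself measured 2.46, 0.309 and 1.23 FPKM under the wild type label and 1.64, 1.45 and 1.88 FPKM under the knockout label (log2 difference 0.29, limma adjusted p = 0.988). Its level thus does not separate the labels, which part of the gene was deleted is not stated in them, and every direction given here is one between labels. The fibre genes Acta1, Ckm, Myh4, Mylpf and Tnnt3 summed to 56102 to 61528 FPKM in every library. Library 3 labelled wild type stood apart in the neutrophil genes S100a8 and S100a9 (70.8 and 67.1 FPKM, at most 7.09 elsewhere), and library 2 labelled wild type in the chaperone gene Hsp90aa1 (51.2 FPKM, at most 3.72 elsewhere). S100a8, S100a9 and Hsp90aa1 were picked out after their values were seen.

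The promoter sequences of some members hold elements of the kind through which the loops act. RefSeq promoter windows on GRCm38.p6 (250 bases before to 50 bases after an annotated start, 300 bases in all) were found for 9 of the 10 genes, 13 windows in total, and for Per2 none was in the table. The windows were searched on both strands for the E-box CACGTG, the E'-box CACGTT, the D-box TTATGTAA or TTACGTAA, and the ROR/REV-ERB response element. No matches overlapped, and 6 genes held at least 1. Of all 32851 windows, 7.15% held the E-box, 4.68% the E'-box, 1.06% the D-box and 0.384% the ROR/REV-ERB response element. The share with any of these motifs was not counted, so the 6 genes have no background beside them. The stretches below are shown because they belong to Per1 and Nr1d1, which varied most between libraries, to Per3, the member whose labels did not overlap, and to Cry1 and Arntl, which hold an adjacent pair of boxes and the ROR/REV-ERB response element. They read 5′ to 3′ on the strand of the gene, with the matches in capitals, and each E'-box below reads AACGTG because it lies on the other strand.
Per1: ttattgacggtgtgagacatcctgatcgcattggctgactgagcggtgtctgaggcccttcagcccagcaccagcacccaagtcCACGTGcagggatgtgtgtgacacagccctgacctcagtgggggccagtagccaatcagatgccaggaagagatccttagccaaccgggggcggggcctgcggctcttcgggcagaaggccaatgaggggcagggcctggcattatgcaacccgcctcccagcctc
Per3: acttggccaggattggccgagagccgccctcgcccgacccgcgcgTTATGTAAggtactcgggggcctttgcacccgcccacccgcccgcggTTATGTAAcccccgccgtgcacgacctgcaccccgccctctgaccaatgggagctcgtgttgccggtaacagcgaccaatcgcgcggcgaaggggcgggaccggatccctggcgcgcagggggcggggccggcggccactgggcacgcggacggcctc
Cry1: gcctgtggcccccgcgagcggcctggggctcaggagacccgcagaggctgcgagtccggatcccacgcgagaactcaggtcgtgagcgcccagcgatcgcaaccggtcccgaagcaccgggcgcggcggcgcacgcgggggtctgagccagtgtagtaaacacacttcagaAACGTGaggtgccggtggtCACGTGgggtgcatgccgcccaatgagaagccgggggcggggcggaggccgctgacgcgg
Nr1d1: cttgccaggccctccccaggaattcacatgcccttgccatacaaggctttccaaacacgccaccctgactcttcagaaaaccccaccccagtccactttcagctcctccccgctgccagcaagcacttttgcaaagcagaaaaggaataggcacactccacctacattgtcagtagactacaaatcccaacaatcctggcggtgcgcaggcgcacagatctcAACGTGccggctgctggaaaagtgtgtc
Arntl: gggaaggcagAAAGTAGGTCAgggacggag

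The Per1 stretch (chr11:69098699-69098948, plus strand) ends at the first of 2 RefSeq starts of Per1 and holds 1 E-box at 161 to 166 bases before it. The Per3 stretch (chr4:151044666-151044915, minus strand) holds 2 D-boxes, at 198 to 205 and at 151 to 158 bases before the start. In the Cry1 stretch (chr10:85185055-85185304, minus strand) an E'-box at 74 to 79 bases and an E-box at 55 to 60 bases before the start lie close together. Nr1d1 (chr11:98775378-98775627, minus strand) has an E'-box at 23 to 28 bases before the start, and Cry2 has one at 161 to 166 bases. The Arntl stretch is limited to 30 bases (chr7:113207527-113207556, plus strand) around its response element, which lies 27 to 37 bases after the second of the 2 RefSeq starts of Arntl. Clock, Nr1d2 and Dbp held none of these letters within their windows, which says nothing about elements elsewhere in those genes. These matches are descriptions of sequence, and binding was not measured here.

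**Figure D1:**
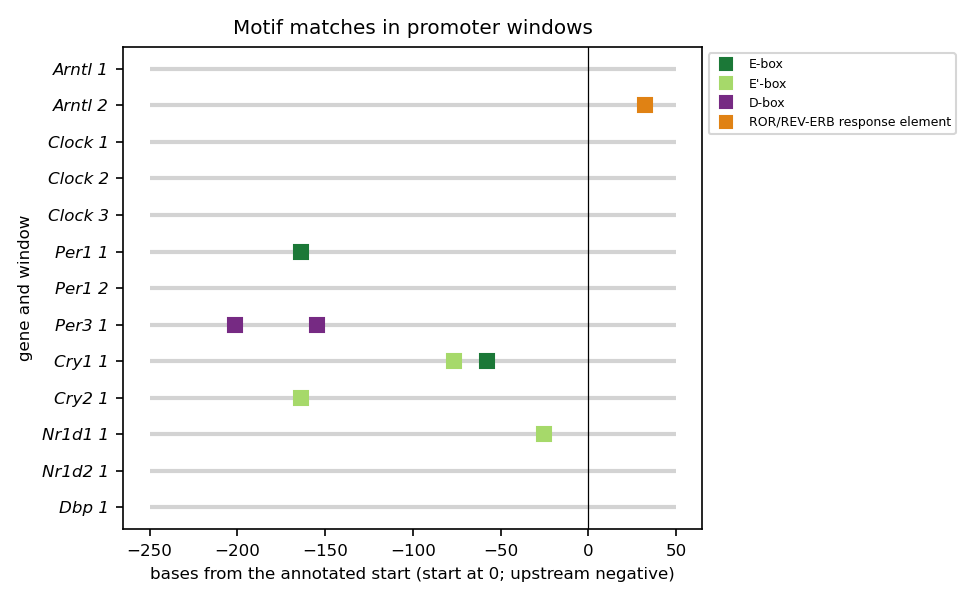
Motif matches in the 13 RefSeq promoter windows of 9 clock genes, by distance in bases from the annotated start (x axis). Each grey line is a window, numbered per gene, and each square a match. The 2 D-boxes of Per3 and the adjacent E'-box and E-box of Cry1 lie before the start, and the element of Arntl lies after it.

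The activator genes were expressed at low levels that overlapped between labels. Arntl (ENSMUSG00000055116, plus strand of chromosome 7, bases 113207465 through 113314126 of mm10, as all gene positions here) measured 3.49, 3.81 and 3.47 FPKM under the wild type label and 2.52, 2.94 and 4.79 FPKM under the knockout label, with libraries 1, 2 and 3 in that order here and throughout. The 3 wild type libraries lay within 1.10-fold of one another, while the knockout libraries held both the lowest and the highest value of the 6 and spanned 1.90-fold. Clock (minus strand of chromosome 5, bases 76209868 through 76304792), the partner of BMAL1, measured 5.62, 6.17 and 7.51 FPKM and 5.59, 6.91 and 7.30 FPKM in the same order. Its groups overlapped across nearly the whole range. Library 1 of each label was lowest for Clock within its label. Counting error is large for Arntl: the 71 fragments of library 1 labelled knockout have an exact 95% Poisson interval of 1.97 to 3.18 FPKM, and the 118 fragments of library 3 labelled knockout one of 3.97 to 5.74 FPKM, so these differ beyond counting error, which is all such intervals cover.

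Among the Per genes, which encode the repressors that carry the timing of the negative loop, Per1 varied most. Per1 (plus strand of chromosome 11, bases 69095217 through 69109960), also an acute target of hormones and other signals, measured 17.1, 17.6 and 29.1 FPKM under the wild type label and 24.6, 41.3 and 14.0 FPKM under the knockout label. Library 2 labelled knockout was the highest and library 3 labelled knockout the lowest of all 6, a 2.96-fold span inside one label that rests on 1496 and 411 fragments. Per2 (minus strand of chromosome 1, bases 91415982 through 91459324), whose protein dimerizes with CRY, measured 8.77, 4.74 and 6.56 FPKM and 12.0, 9.13 and 6.38 FPKM in the same order. For Per2 the highest library of each label was library 1, and the groups overlapped because library 3 labelled knockout lay below libraries 1 and 3 labelled wild type. The log2 difference between labels was 0.40 for Per2 (SE 0.24, limma adjusted p = 0.988) and 0.23 for Per1 (SE 0.35, limma adjusted p = 0.988). Leaving out 1 library moved the difference of Per2 to 0.20 (library 1 labelled knockout), 0.21 (library 2 labelled wild type) or 0.61 (library 3 labelled knockout), always above 0. The sign for Per1 rests on library 2 labelled knockout, since the difference was -0.14 once that library was left out.

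Per3 was the 1 member whose groups did not overlap. Per3 (ENSMUSG00000028957, minus strand of chromosome 4, bases 151003652 through 151044665), the Per gene with the D-boxes printed above, measured 11.6, 14.2 and 14.0 FPKM under the wild type label and 16.6, 17.3 and 14.8 FPKM under the knockout label. Every library labelled knockout thus lay above every library labelled wild type. Among all tested genes 9.48% had groups that did not overlap, 3.84% with the knockout label higher and 5.64% with it lower, and 1 member of 10 is near that background. The log2 difference of log2(FPKM + 1), labelled knockout minus labelled wild type, was 0.27 (SE 0.11, 95% interval 0.02 to 0.52), and limma's unadjusted p of 0.0395 became 0.988 after Benjamini-Hochberg adjustment over all genes. The exact two-sided permutation test gave p = 0.1, the smallest that 3 against 3 libraries allow.

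The cryptochrome genes, encoding the direct blockers of the BMAL1 dimer, overlapped between labels. Cry1 (minus strand of chromosome 10, bases 85131700 through 85185064) measured 5.55, 3.55 and 4.09 FPKM under the wild type label and 4.92, 4.42 and 4.15 FPKM under the knockout label. As for Per2, library 1 was the highest of each label. Cry2 (minus strand of chromosome 2, bases 92403646 through 92434043) measured 18.0, 22.3 and 19.0 FPKM and 22.5, 19.6 and 18.3 FPKM in the same order, a span of 1.25-fold over all 6 libraries. Cry2 stood at several times the level of Cry1 per length of gene in each library.

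Nr1d1 had the widest range of the 10 genes, and the range lay within both labels. Nr1d1 (ENSMUSG00000020889, minus strand of chromosome 11, bases 98767932 through 98775333), encoding REV-ERB alpha, measured 21.4, 85.1 and 74.4 FPKM under the wild type label and 23.2, 56.5 and 72.8 FPKM under the knockout label. Library 1 of each label was low and the other 4 libraries were high, a 3.99-fold span among the libraries labelled wild type and a 3.14-fold span among those labelled knockout. From 402 and 394 fragments, the exact 95% Poisson intervals of the low libraries were 19.3 to 23.5 and 20.9 to 25.6 FPKM, and the lowest bound of the other libraries was 53.1 FPKM. The direction between labels changed with the libraries used: the log2 difference of -0.17 became 0.19 or 0.09 when library 2 or library 3 of the wild type label was left out, and 0.31 when library 1 of the knockout label was.

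Other values moved with Nr1d1 across libraries. The gene of the thyroid hormone receptor alpha, Thra, shares 263 exon bases with Nr1d1 on the other strand (8.55% of the exon bases of Nr1d1), and it measured 41.5, 76.9 and 64.1 FPKM under the wild type label and 48.2, 65.4 and 64.8 FPKM under the knockout label. The sources used here do not say if strand was used in counting, so both levels are uncertain, and the part of shared fragments in the low values was not tested. Markers of cells other than fibres moved with Nr1d1 in part. The 5 fibroblast markers summed to 178, 368 and 355 FPKM under the wild type label and to 184, 205 and 256 FPKM under the knockout label, lowest in library 1 of each, like Nr1d1. The 4 endothelial markers summed to 78.8, 128 and 125 FPKM and to 111, 93.4 and 108 FPKM, and the 4 Schwann cell markers to 56.8, 64.2 and 70.8 FPKM and to 68.4, 57.5 and 64.9 FPKM. For both of these, library 1 was the lowest of the wild type label and the highest of the knockout label. The 4 adipocyte markers summed to 6.88, 19.4 and 19.0 FPKM and to 8.71, 7.29 and 15.5 FPKM, and the 5 leukocyte markers to 18.6, 52.3 and 165 FPKM and to 22.4, 18.2 and 34.5 FPKM, with library 2 lowest under the knockout label. Between labels, none of the markers passed the adjusted test, and all 5 fibroblast, all 4 endothelial, all 3 tested adipocyte and all 4 tested leukocyte markers had a lower estimate under the knockout label. The median log2 differences were -0.38, -0.05, -0.40 and -0.89 in that order, with the endothelial Pecam1 at -0.00 and Cdh5 at -0.02. Of the Schwann cell markers 2 had a higher and 2 a lower estimate. Among all tested genes 43.3% had a higher estimate. S100a8 was listed at 0 in library 2 labelled knockout, and every other one of these 22 markers was above 0 in every library. Their part in the range of Nr1d1 was not tested, and in a whole muscle fewer cells of a type and less RNA per cell cannot be told apart.

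Nr1d2, encoding REV-ERB beta, did not share this range. Nr1d2 (minus strand of chromosome 14, bases 18204054 through 18239127) measured 55.6, 44.0 and 47.3 FPKM under the wild type label and 50.6, 49.8 and 51.3 FPKM under the knockout label, within 1.26-fold overall. Its highest library was library 1 labelled wild type, in which Nr1d1 was lowest. Dbp (plus strand of chromosome 7, bases 45705088 through 45710203), a transcription factor of the PAR bZIP family and a direct output of the BMAL1 dimer, measured 39.5, 50 and 66.5 FPKM and 48.9, 47.0 and 55.3 FPKM in the same order. Dbp was also lowest in library 1 labelled wild type but not in library 1 labelled knockout, and its exons overlap those of Sphk2 on the other strand over 18.0% of their bases, where Sphk2 was at 4.87 to 6.08 FPKM.

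**Figure D2:**
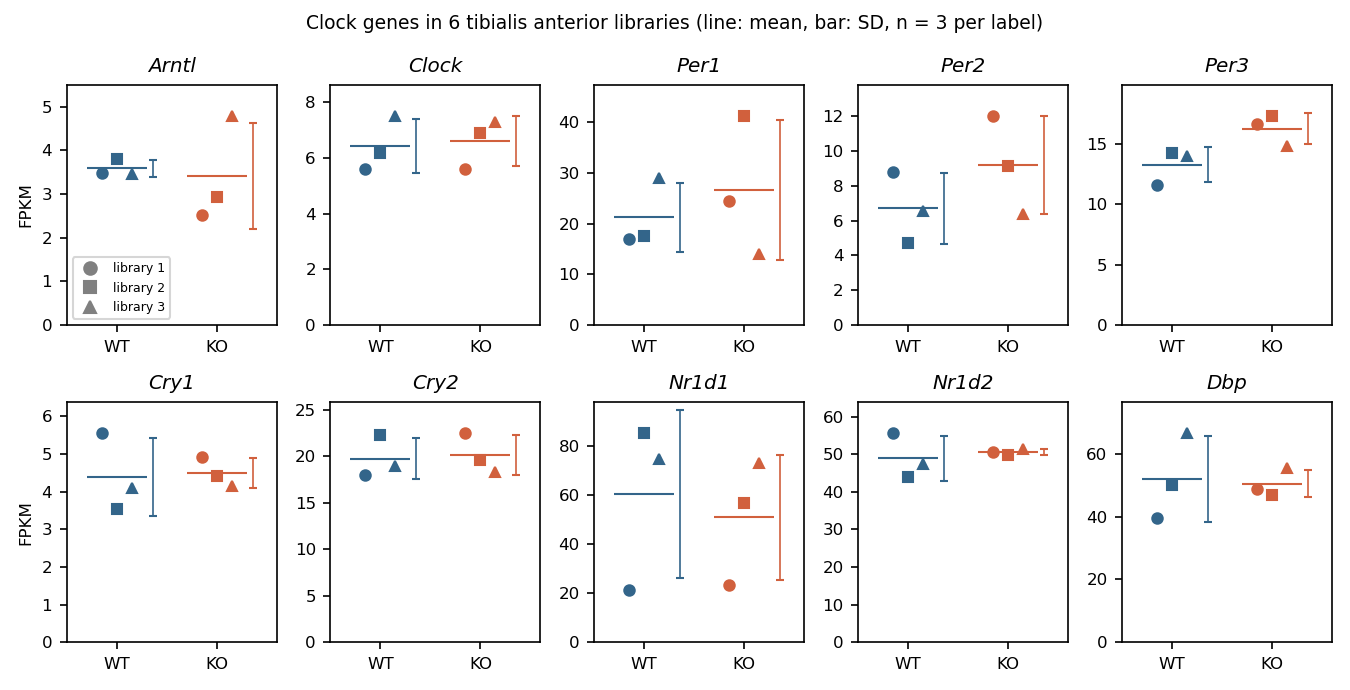
FPKM of the 10 clock genes (y axes from 0) in the libraries labelled wild type (WT) and knockout (KO), with circles, squares and triangles for libraries 1, 2 and 3, lines for means and bars for SD (n = 3 per label). Nr1d1 is at 21.4 and 23.2 FPKM in library 1 of each label and above 56 FPKM elsewhere, and Per3 is the gene whose labels do not overlap.

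Compared between labels, 0 of the 10 clock genes passed limma's test, where 0 of 11383 genes (0%) passed at a Benjamini-Hochberg adjusted p of 0.05, and limma voom on fragment counts also called 0. Adjusted p lay between 0.988 and 0.999 for all 10. At an unadjusted p under 0.05 there was 1 member, Per3, where 523 of all tested genes (4.59%) were, 1.28% higher and 3.31% lower under the knockout label. The mean levels were 13.3 ± 1.42 and 16.2 ± 1.28 FPKM for Per3, 6.69 ± 2.02 and 9.18 ± 2.82 FPKM for Per2, and 21.2 ± 6.78 and 26.6 ± 13.8 FPKM for Per1 (wild type label first, SD, n = 3). Means for Nr1d1 were 60.3 ± 34.1 and 50.8 ± 25.3 FPKM and for Arntl 3.59 ± 0.190 and 3.42 ± 1.21 FPKM in the same order. Those of Clock were 6.43 ± 0.969 and 6.60 ± 0.893 FPKM, of Cry1 4.40 ± 1.04 and 4.50 ± 0.392 FPKM, and of Cry2 19.8 ± 2.22 and 20.1 ± 2.16 FPKM. Nr1d2 had means of 49.0 ± 5.98 and 50.6 ± 0.738 FPKM, and Dbp of 52.0 ± 13.6 and 50.4 ± 4.33 FPKM. The exact permutation p was 0.300 for Per2 and 0.700 or more for the other members apart from Per3. Of the 10 log2 differences 7 were above 0 and 3 below, with a median of 0.04, where the median of all tested genes was -0.02 and 43.3% of them were above 0. All 5 Per and Cry genes had a difference above 0, from 0.02 for Cry2 to 0.40 for Per2, but only that of Per3 had an interval clear of 0.

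The intervals, each for a single gene and not adjusted over genes, show which differences are compatible with these libraries. They do not give the size of difference that the adjusted test would call. For Cry2 and Nr1d2 the 95% intervals ran from -0.24 to 0.29 and from -0.17 to 0.28, so that larger shifts lay outside them. They ran from -0.52 to 0.34 for Arntl, -0.29 to 0.35 for Clock, -0.31 to 0.40 for Cry1 and -0.41 to 0.37 for Dbp. For Per2 the interval was -0.16 to 0.96 and for Per1 -0.57 to 1.03. Nr1d1 had the widest, -1.43 to 1.09, so that a difference of 1 in either direction, which is 2-fold on this scale, would lie inside it. For 8 of the 10 genes the SD of log2(FPKM + 1) within a label exceeded the size of the difference between labels.

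**Figure D3:**
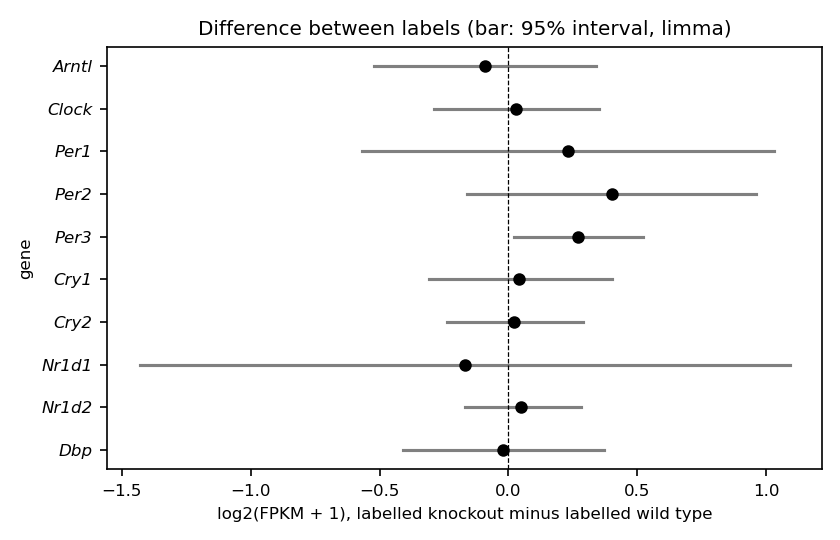
Log2 difference of log2(FPKM + 1), labelled knockout minus labelled wild type, for the 10 clock genes (dots) with 95% intervals from limma (bars), 3 libraries per label. The interval of Per3 (0.02 to 0.52) lies above 0 before adjustment, and that of Nr1d1 (-1.43 to 1.09) is the widest.

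The clock genes ranged from steady to highly variable between libraries. Across the 6 libraries the median ratio of the highest to the lowest FPKM was 1.63 for the 10 members and 1.30 for the 7416 genes whose mean reached 5 FPKM, as that of 8 members did. A ratio at or above that of Nr1d1 (3.99) was found in 0.823% of those genes, one at or above that of Per1 (2.96) in 1.46%, and one at or above that of Per2 (2.54) in 2.27%. At the other end, Cry2 (1.25), Nr1d2 (1.26) and Clock (1.34) had ratios that 63.4%, 59.4% and 41.7% of the genes reached or exceeded. Arntl (1.90), Dbp (1.68), Cry1 (1.57) and Per3 (1.48) lay between.

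The 2 limbs of the loop were then compared within each library, a comparison that library-wide scaling leaves unchanged apart from the pseudocount. The activator limb was the mean log2(FPKM + 1) of Arntl and Clock, and the repressor limb that of the 5 Per and Cry and the 2 Nr1d genes. The activator mean was 2.54 ± 0.09 under the wild type label and 2.51 ± 0.26 under the knockout label, and the repressor mean 4.19 ± 0.13 and 4.31 ± 0.14 (SD, n = 3). Activator minus repressor was -1.61, -1.63 and -1.70 under the wild type label and -2.01, -1.98 and -1.39 under the knockout label. The wild type libraries thus lay close together, and the knockout libraries lay on either side of them, 2 below and 1 above. Counting error of Arntl, with 89 to 120 fragments in the wild type libraries, enters this score and was not removed. The closeness of these values therefore does not by itself show that the wild type libraries are alike. The means were -1.65 ± 0.05 and -1.79 ± 0.35 (SD, n = 3 each), a difference of -0.15 that was -0.04 without library 1, -0.05 without library 2 and -0.35 without library 3 labelled knockout. No p is given for this score, because it is built from the chosen members.

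The near-equal limb values of the wild type libraries joined unlike levels of single genes. The ratio of Nr1d1 to Per2 in FPKM, chosen after the values were seen, was 2.43, 18.0 and 11.3 under the wild type label and 1.93, 6.19 and 11.4 under the knockout label. Within each label the order of the libraries by Nr1d1 was the reverse of their order by Per2. This ordering was also picked out after the values were seen, and with 3 libraries per label it was not tested. Without Nr1d1, the limb difference was -1.54, -1.26 and -1.38 under the wild type label and -1.95, -1.75 and -1.06 under the knockout label. The ratio of Dbp to Arntl was 11.3, 13.1 and 19.2 and then 19.4, 16.0 and 11.5, with both labels covering about the same range. The time of sampling is not given in the labels, so its part in these patterns was not tested.

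**Figure D4:**
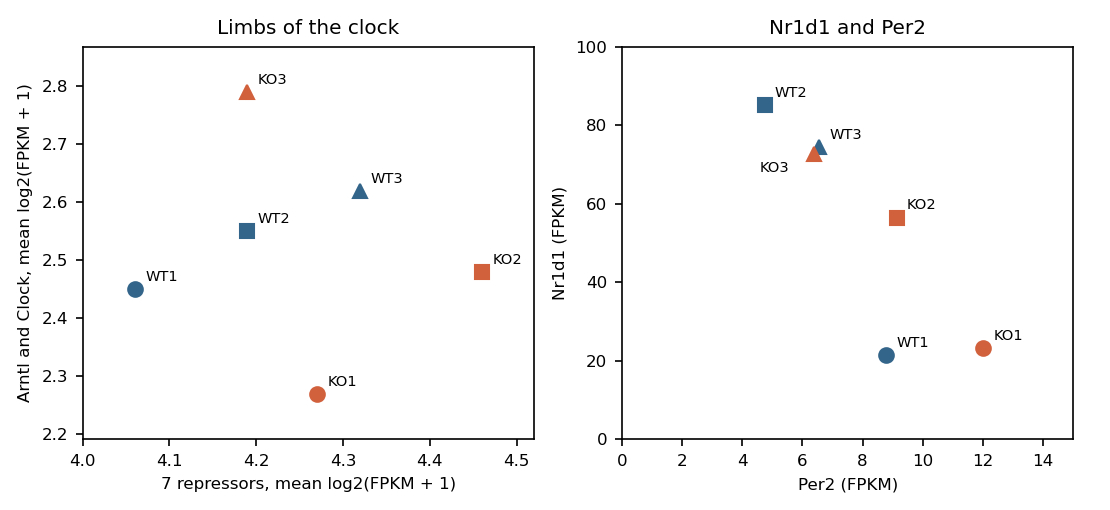
Left, mean log2(FPKM + 1) of Arntl and Clock against that of the 7 repressor genes. Right, Nr1d1 against Per2 in FPKM. Each point is a library, blue for wild type and orange for knockout labels. Libraries 1 and 3 labelled knockout mark the lowest and highest activator means (2.27 and 2.79), and library 1 of each label combines low Nr1d1 with Per2 of 8.77 and 12.0 FPKM.

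Across the 6 libraries, Arntl was set against each of the other 9 members on the log2(FPKM + 1) scale. Without further scaling, the relation with Per2 had the largest r in size (Pearson r = -0.76, exact permutation p = 0.0708, Spearman rho = -0.89, exact permutation p = 0.0333), but adjusted over the 9 relations p was 0.504 for r and 0.300 for rho. Without the 2 libraries farthest from the median of Arntl, libraries 1 and 3 labelled knockout, r for Per2 was -0.80 over 4 libraries, and after quantile normalization it was -0.56 over all 6. For Per1 r was -0.70 (rho = -0.77, exact permutation p = 0.119 and 0.103, adjusted 0.504 and 0.462) and -0.87 without those libraries, and after quantile normalization -0.71, so that Per1 then stood before Per2. The Per and Cry genes all had r below 0, from -0.43 to -0.76, whereas Clock (0.48) and Dbp (0.26) had r above 0 and Nr1d2 was at -0.07. The relation with Nr1d1 had a sign above 0, and its p was kept among the 9 that were adjusted together. Its pooled r is not read further, because its libraries fall into 2 separate sets of levels. None of the 9 passed the adjusted threshold, and the signs for Clock and Cry2 turned without the same 2 libraries (-0.39 and 0.40). With 3 libraries per label, no value within a label was computed.

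Other transcription factors belong to the same loops. Of the 11 genes of this list 9 were tested, 6 had a higher and 3 a lower estimate under the knockout label (median log2 difference 0.06), and 0 passed the adjusted test. Npas2, a relative of Clock, was below the filter at 0.107 to 0.639 FPKM (2 to 12 fragments), and Rorb at 0.0221 to 0.131 FPKM. The groups of Arntl2, a relative of Arntl named after its values were seen, did not overlap. It measured 1.96, 2.17 and 2.52 FPKM under the wild type label and the lower 1.85, 1.78 and 1.90 FPKM under the knockout label (log2 difference -0.17, limma adjusted p = 0.988). Tef, a PAR bZIP relative of Dbp, was the most abundant at 205, 207 and 189 FPKM and at 227, 234 and 212 FPKM (log2 difference 0.16, limma adjusted p = 0.988), again without overlap. Groups that did not overlap were found in 9.48% of all tested genes, 3.84% with the knockout label higher and 5.64% with it lower. Rora was at 33.8 to 39.0 FPKM in all 6 libraries, and Bhlhe40, a repressor acting on E-boxes, at 58.5 to 84.6 FPKM with its lowest value in library 1 of each label.

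Library patterns of the core genes recurred in this list, in genes named after their values were seen. Ciart, a repressor of the BMAL1 dimer, measured 3.54, 4.77 and 10.6 FPKM under the wild type label and 5.34, 13.6 and 6.61 FPKM under the knockout label. The highest library of each label was the same as for Per1. Nfil3, which competes with DBP for D-boxes and is repressed by REV-ERB, measured 18.4, 5.32 and 9.49 FPKM and 12.8, 14.0 and 6.00 FPKM in the same order. It was highest in library 1 labelled wild type, where Nr1d1 was lowest, and lowest in library 2 labelled wild type, where Nr1d1 was highest. Under the knockout label the orders were not opposite throughout. There Nfil3 was lowest in library 3, where Nr1d1 was highest of that label, but both genes were higher in library 2 than in library 1.

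**Figure D5:**
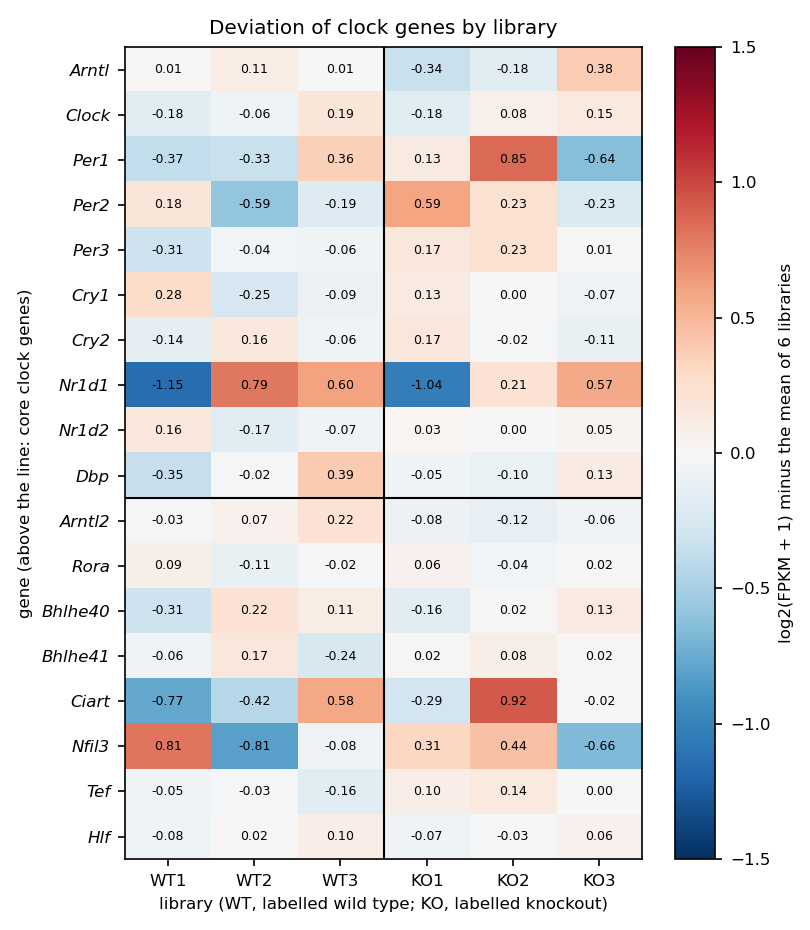
Deviation of log2(FPKM + 1) from the mean of the 6 libraries for the 10 core clock genes (above the line) and 8 other clock transcription factors (below). Columns are libraries, red is above and blue below the mean. Nr1d1 stands at -1.15 and -1.04 in library 1 of each label, and Per1 and Ciart are highest in library 2 labelled knockout (0.85 and 0.92).

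The stability and activity of clock proteins are set by further genes. Of 10 such genes 9 were tested, 5 had a higher and 4 a lower estimate under the knockout label (median log2 difference 0.01), and 0 passed. Csnk1d, a kinase gene whose product marks PER proteins for degradation, was at 39.0 to 48.1 FPKM, and Cipc, encoding an inhibitor of CLOCK, at 38.5 to 45.5 FPKM. Usp2, a ubiquitin protease gene under clock control, measured 142, 90.4 and 113 FPKM under the wild type label and 150, 135 and 92.6 FPKM under the knockout label, the same order of libraries within each label as for Per2. Fbxl21 was below the filter, and Fbxw11, named after its values were seen, was the 1 gene of the 9 whose groups did not overlap (19.0 to 20 FPKM under the knockout label, 20.6 to 21.9 FPKM under the wild type label). That share is close to the 9.48% of all tested genes, 5.64% with the knockout label lower.

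Muscle genes known to follow the clock were read as its outputs. All 9 were tested, 6 had a higher and 3 a lower estimate under the knockout label (median log2 difference 0.02), and 0 passed. The most abundant were Tcap, the titin cap gene, at 3488, 3231 and 2843 FPKM against 3571, 2969 and 2491 FPKM, Slc2a4, the insulin-responsive glucose transporter gene, at 420 to 529 FPKM, and Hk2, the hexokinase gene, at 197 to 273 FPKM. For each of these 3 genes library 1 was the highest of its label.

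Genes that respond to signals able to set Per genes were read in the same libraries. Of the 7 glucocorticoid-responsive genes 5 had a higher and 2 a lower estimate under the knockout label (median log2 difference 0.05), and 0 passed. Tsc22d3, the glucocorticoid-induced leucine zipper gene, was at 173, 117 and 171 FPKM against 175, 224 and 93.7 FPKM, Sgk1 at 191, 120 and 122 FPKM against 161, 200 and 129 FPKM, and Klf9 at 47.4 to 62.9 FPKM. Ddit4, a stress- and hormone-induced inhibitor of mTOR signalling picked out once its values were known, measured 20, 22.9 and 52.1 FPKM against 26.8, 68.9 and 6.86 FPKM, the same order of all 6 libraries as Per1. Fkbp5, picked out in the same way, measured 20.5, 4.28 and 6.65 FPKM against 19.1, 12.4 and 8.53 FPKM, highest in library 1 of each label. Their part in the levels of Per1 and Per2 was not tested.

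Temperature-responsive and immediate-early genes were the remaining cues. Of 5 temperature-responsive genes 2 had a higher and 3 a lower estimate (median -0.18), and 0 passed. Rbm3, a cold-inducible gene, was at 27.0, 32.1 and 33.2 FPKM against 43.4, 50.5 and 53.4 FPKM (log2 difference 0.66, limma adjusted p = 0.659), without overlap, and its relative Cirbp at 35.7, 42.4 and 35.2 FPKM against 35.8, 50.1 and 53.5 FPKM. The heat shock gene Hspa1b, whose near-identical copy Hspa1a makes its level uncertain, was at 2.32, 2.33 and 2.34 FPKM against 1.47, 1.81 and 0.800 FPKM (log2 difference -0.52, limma adjusted p = 0.988). For this low gene the difference was -0.80 with a pseudocount of 0.1, -0.81 with voom and -0.34 without library 3 labelled knockout. The chaperone gene Hspa8, which has many processed copies, was at 561 to 765 FPKM. The groups of Hspa1b and Hsp90aa1 did not overlap either, with the lower values under the knockout label. Hsp90aa1 was at 3.45, 51.2 and 3.72 FPKM against 2.26, 2.26 and 2.88 FPKM (log2 difference -1.58, limma adjusted p = 0.988). Of the 5 genes, 1 thus lay higher and 2 lower without overlap, where 3.84% and 5.64% of all tested genes did. Of 6 immediate-early genes 1 had a higher and 5 a lower estimate (median -0.31), and 0 passed. Nr4a1 was at 56.9, 74.9 and 89.9 FPKM against 98.6, 119 and 45.5 FPKM, with library 2 labelled knockout highest and library 3 labelled knockout lowest, as for Per1. Fos (1.84 to 10.8 FPKM) and Ier2 (3.33 to 6.48 FPKM) were highest in library 2 labelled wild type.

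The genes whose pattern over the 6 libraries was most like that of Arntl and of Dbp were looked up among 7400 other genes that had a symbol and a mean of 5 FPKM or more. For Arntl they were Rgs2 (Pearson r = 0.99), S100a16 (0.985) and Cyb5a (0.973), each lowest in library 1 and highest in library 3 labelled knockout. For Dbp they were Aff4 (0.988), Copg2 (0.986) and Nol11 (0.979), each lowest in library 1 and highest in library 3 labelled wild type. A correlation of at least 0.9 was reached by 0.473% of the genes searched for Arntl and by 0.986% for Dbp. The exons of Copg2 overlap those of Mest on the other strand over 17.8% of their bases, and those of Nol11 overlap an antisense gene over 8.16%. These are descriptions over 6 points that share library depth, with no test.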

How the data were processed

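RNA-seq of 6 tibialis anterior libraries was compared between the genotypes in the labels, 3 libraries each. The deposited tables give FPKM per gene, per the file headers, computed by the authors for 41025 genes and each library separately. The submitters' processing notes name TopHat2 (2.1.1), Cufflinks (2.2.1) and the build mm10. Annotation release, use of strand and filters: not given in the sources used here. A symbol was found for 40452 gene IDs, and positions and overlaps came from a GENCODE annotation of mm10.

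Because FPKM values are no counts, log2(FPKM + 1) was tested with limma 3.58.1 (R 4.3.3) using a mean-variance trend, on genes whose mean reached 1 FPKM. Adjustment was by Benjamini-Hochberg across all 11383 of these, at a threshold of 0.05. The scale understates changes of low genes. All 23559 genes above 0 (100%) gave whole fragments, with a largest deviation of 6.6e-05 of a fragment, and these made up 99.7% of each library total. They were used for Poisson intervals and for limma voom as an alternative.

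The members and lists were chosen with earlier results of these data known. The text names all 10 members and, from every further list, the 3 tested genes of highest mean and those at an unadjusted p under 0.05. Other genes of these lists are marked where they are named, apart from those below the filter. Markers are given as sums, except for single values of S100a8, S100a9, Pecam1 and Cdh5, which were picked out after the values were seen. The values of 1 gene that the rule names are not reported here. Other scalings, pseudocounts, filters, variance models, the replicate block and the omission of each library were tried. Other software was Python 3.11.15, pandas 2.3.3, numpy 2.4.6, scipy 1.17.1 and matplotlib 3.10.9.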

Additional observations from a re-analysis of the deposited data

How the results depend on the processing

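No clock gene was called under any of the 16 alternatives, but Arntl and Cry1 were not tested where a mean of at least 5 FPKM was required. Over all genes 0 were called by limma under the 10 alternatives that kept every library, voom on the recovered fragments included. Genes at an unadjusted p under 0.05 numbered from 339 of 7416 (mean of at least 5 FPKM) to 1413 of 11383 (library weights). When 1 library was left out, 0 to 3 genes were called. The 3 (Gm17720, Myh7 and Tnnc1) were called without library 3 labelled wild type, and 1 each without library 1 labelled wild type (Igha) and library 3 labelled knockout (Gm2830). Same-numbered libraries of the 2 labels did not deviate together over all tested genes (r = 0.02, -0.04 and 0.02). Over the 10 clock genes r was 0.87, 0.06 and 0.08, and not every library correlated best with its own number, so the numbers were not taken as pairs. With the replicate number as a block, 0 genes were called, 472 had an unadjusted p under 0.05, and Per3 had an unadjusted p of 0.0578. Per3 lost an unadjusted p under 0.05 also without library 1 labelled wild type (0.112), library 1 labelled knockout (0.0907) and library 2 labelled knockout (0.129), while Per2 came under an unadjusted p of 0.05 when library 1 of the wild type label or library 3 of the knockout label was left out.

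The differences of Per2 and Per3 kept their direction under all 16 alternatives, with ranges of 0.20 to 0.61 and 0.18 to 0.33 when 1 library was left out. With library weights those of Clock and Cry2 turned to -0.01, Csnk1d to -0.03, Cipc to -0.02 and Hk2 to -0.00. Subtracting medians turned Dbp to 0.03, Bhlhe40 to 0.04 and Slc2a4 to 0.03, and quantile normalization turned all 3 to 0.00. Leaving out 1 library gave ranges on both sides of 0: -0.30 to 0.06 for Arntl, -0.05 to 0.13 for Clock, -0.14 to 0.61 for Per1, -0.07 to 0.19 for Cry1, -0.05 to 0.11 for Cry2, -0.78 to 0.31 for Nr1d1, -0.02 to 0.15 for Nr1d2, -0.20 to 0.17 for Dbp, -0.02 to 0.08 for Rora, -0.16 to 0.10 for Bhlhe40, -0.01 to 0.13 for Csnk1d, -0.07 to 0.05 for Cipc, -0.04 to 0.32 for Usp2, -0.22 to 0.04 for Tcap, -0.12 to 0.11 for Hk2, -0.13 to 0.04 for Slc2a4, -0.24 to 0.39 for Tsc22d3, -0.02 to 0.18 for Klf9, -0.73 to 0.27 for Fos and -0.11 to 0.57 for Nr4a1.

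The limb difference stayed below 0, from -0.35 to -0.04 when 1 library was left out. Arntl against Nr1d2 turned to 0.09 as Spearman's rho and to 0.17 after quantile normalization, and without the 2 extreme libraries Arntl against Clock turned to -0.39 and against Cry2 to 0.40. Among the 10 clock genes depth limits Arntl most, with 71 to 120 fragments per library.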
